A study of Mus musculus with 2 samples.

Results

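The STAT transcription factor family was examined in splenic regulatory T cells (Tregs), the Foxp3-dependent CD4+ T cells that keep immune responses in check. The probe sets described are those that the platform annotation assigns to exactly 1 gene, that gene being Stat2, Stat3, Stat4, Stat5a, Stat5b or Stat6. There were 13 such probe sets for the 6 genes, of 45037 probe sets for 18193 genes in all.

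Total RNA was measured on Affymetrix 3′ expression arrays, with 1 array for each genotype. The DNR array held RNA of CD4+Foxp3+ Tregs from DNR mice, in which a dominant negative form of TGF-beta receptor II blunts TGF-beta signalling, and the WT array held RNA of CD4+Foxp3+ Tregs from wild-type (WT) mice. All animals were 10 weeks old, naive and of the C57BL/6 background, and the cells were purified from spleen by flow cytometry. The sorting note of both samples names DNR mice, whereas the genotype and title of the WT sample say wild type, and the genotype label was followed here. The promoter that drives the receptor, the number of mice behind each RNA and the way Foxp3 was seen in living cells are not stated in the sources.

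STAT proteins carry cytokine signals to the nucleus. A cytokine brings its receptor chains together, the Janus kinases bound to them phosphorylate the receptor and then a STAT on a tyrosine, and the paired STATs bind DNA, mostly at palindromes of the form TTCNNNGAA. STAT5 downstream of interleukin-2 maintains Foxp3 in Tregs, STAT3 follows interleukin-6, interleukin-10 and interleukin-21, STAT4 follows interleukin-12, STAT6 follows interleukin-4, and STAT2 joins IRF9 in the complex that type I interferons activate. STATs are switched by phosphorylation, which an RNA measurement does not see.

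No STAT gene differed by 2-fold between the arrays. With the brightest probe set of each gene, Stat2 and Stat3 had a higher signal in DNR Tregs and Stat4, Stat5a, Stat5b and Stat6 a lower one, and the log2 ratios of DNR over WT lay between -0.57 and 0.33. Of all 11927 measured genes, 6.93% differed by at least 2-fold, so 0 of 6 STAT genes is near that background. The median log2 ratio of the 6 genes was -0.19, against 0.01 over all measured genes. With 1 array per genotype there is no test, no replicate check and no p-value, and a difference is one between these RNA samples.

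Signals are MAS5 intensities on a linear scale, scaled by the authors to a common mean. They can be compared between arrays for a probe set, but not between probe sets, so the levels of the STAT genes are not ranked. Values below the higher of the arrays' medians, a signal of 110.9, were set to this floor. A gene was called measured if its brightest probe set exceeded the floor on the DNR array, the WT array or both, and a ratio with 1 side at the floor is a bound. The only error that could be estimated was how far probe sets for 1 gene disagree, a robust SD of 0.36 in the log2 ratio over 3968 genes. It leaves out any spread between animals, sorts and arrays. The 9 Treg markers with a named probe set exceeded the floor on both arrays, 5 of them higher in DNR Tregs, Foxp3 among these with 4550 in DNR and 3754 in WT Tregs, and 4 lower. Of the lower ones Izumo1r, the Treg folate receptor FR4, was past 2-fold, with 1734 in DNR and 3515 in WT Tregs. Of other cell types, 5 of 9 B cell and plasma cell markers with a named probe set, 3 of 9 dendritic cell markers, 4 of 11 neutrophil markers and 1 of 6 erythroid and platelet markers exceeded the floor on an array, with summed signals of 1913, 1040, 1513 and 293 in DNR Tregs, against 1275, 1253, 786 and 443 in WT Tregs. All 18 probe sets of the hybridisation spike-ins had a higher signal on the DNR array, with a median ratio of 1.95.

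**Figure D1:**
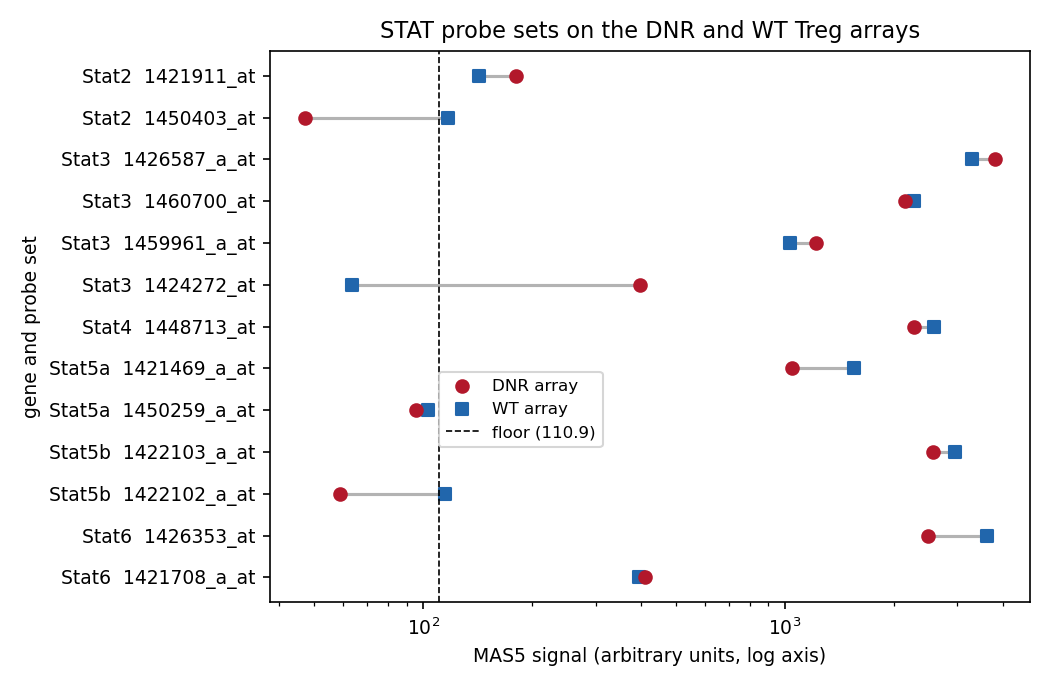
Signal of each of the 13 STAT probe sets on the DNR array (circles) and the WT array (squares), on a log axis, with the floor of 110.9 as a dashed line; each line joins the signals of 1 probe set. The 9 probe sets right of the floor on both arrays have short lines, and 1 Stat3 probe set stands at 398 in DNR and 63.4 in WT Tregs.

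Stat5a and Stat5b encode the closely related STAT5 proteins that interleukin-2 activates in Tregs. Stat5a had a signal of 1046 in DNR Tregs and 1550 in WT Tregs, a log2 ratio of -0.57, the most negative of the family. This was 1.56 times the probe-set SD, and 23.7% of all measured genes differed by more. The other Stat5a probe set was below the floor on both arrays, at 95.6 in DNR and 103 in WT Tregs. Stat5b had 2564 in DNR Tregs and 2944 in WT Tregs, 1.15-fold lower. Its other probe set had 59.0 in DNR and 115 in WT Tregs, so that only the WT value was above the floor and the bound was a 1.04-fold lower signal. Both STAT5 genes thus had a lower signal in DNR Tregs. Their log2 ratios differed by -0.37 (Stat5a minus Stat5b), which is less than the 0.514 that 2 probe sets of the same gene differ by at 1 SD.

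Stat3 is the family member with the most probe sets on the array, and it lies beside Stat5a and Stat5b on chromosome 11 in the RefSeq annotation. Its brightest probe set had 3815 in DNR Tregs and 3286 in WT Tregs, 1.16-fold higher. A further probe set had 1219 in DNR and 1031 in WT Tregs, and another 2153 in DNR and 2274 in WT Tregs, so that these 3 probe sets lay between log2 ratios of -0.08 and 0.24. The probe set 1424272_at stood apart, with 398 in DNR Tregs and 63.4 in WT Tregs. Since the WT value was below the floor, this is a signal at least 3.59-fold higher in DNR Tregs. It was the only 1 of the 12 STAT probe sets above the floor on an array that reached 2-fold, against 7.23% of all such probe sets with a single gene. Of all probe sets above the floor on the DNR array alone, 10.6% were at least 2-fold higher, and of genes with 4 probe sets and at least 1 above the floor on an array, 16.2% had at least 1 past 2-fold. The 3 brighter Stat3 probe sets do not show this difference, and which Stat3 transcripts each probe set binds is not stated in the sources.

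Stat6, which carries interleukin-4 signals and is known for its part in type 2 helper cells, had 2487 in DNR Tregs and 3614 in WT Tregs, 1.45-fold lower (log2 ratio -0.54). The other Stat6 probe set had 410 in DNR and 395 in WT Tregs, 1.04-fold higher. The Stat6 probe sets therefore disagreed in direction, and the median over both gave a log2 ratio of -0.24.

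Stat4, which carries interleukin-12 signals and is known for its part in type 1 helper (Th1) cells, had a single probe set with 2279 in DNR Tregs and 2581 in WT Tregs, 1.13-fold lower. Of all measured genes 67.8% differed by more. Stat2, the interferon-activated member that does not bind the palindrome alone, had 180 in DNR Tregs and 143 in WT Tregs, 1.26-fold higher. Its other probe set had 47.0 in DNR and 117 in WT Tregs, so its bound was a 1.06-fold lower signal. Both Stat2 probe sets were near the floor and went in opposite directions. Stat5a and Stat6, 2 of the 6 genes, differed between the arrays by more than the probe-set SD, as did 41.9% of all measured genes.

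**Figure D2:**
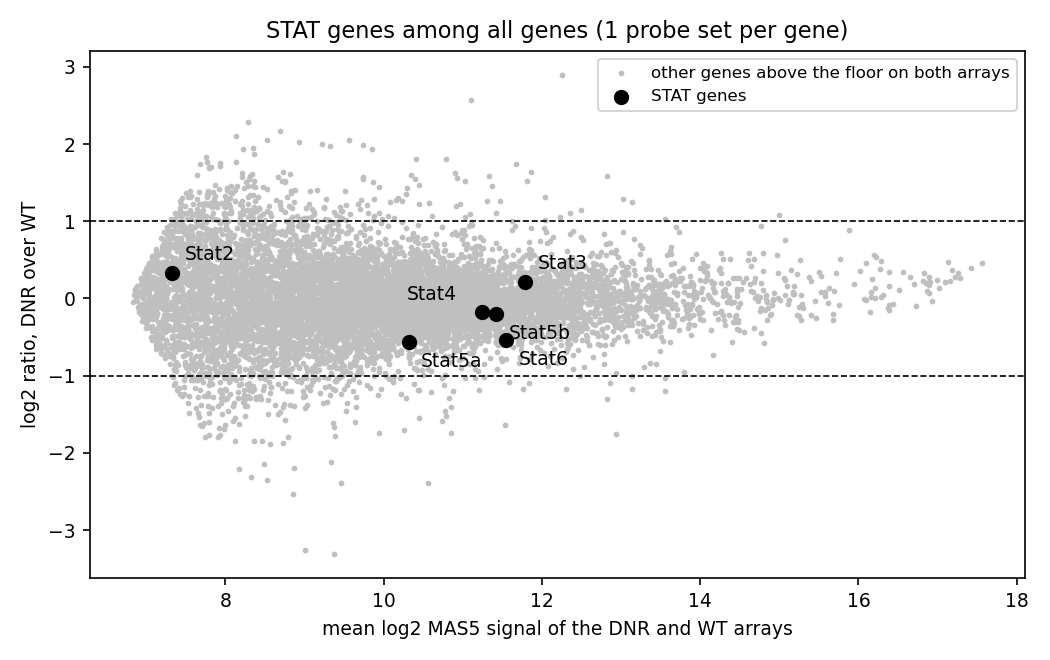
Log2 ratio of DNR over WT against the mean log2 signal of both arrays, for the 9281 genes that exceeded the floor on both arrays (grey) and the 6 STAT genes (black), with dashed lines at 2-fold. All STAT genes lie between the lines, from -0.57 for Stat5a to 0.33 for Stat2.

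The directions of the 6 brightest-probe-set ratios held under each of the 7 alternative settings for floor, probe sets and scaling. The ranges were 0.11 to 0.37 for Stat2, 0.22 to 0.26 for Stat3, -0.18 to -0.14 for Stat4, -0.57 to -0.53 for Stat5a, -0.20 to -0.13 for Stat5b and -0.54 to -0.24 for Stat6. Most settings could not move these ratios. The other floors changed only Stat2, and leaving out probe sets named _s_at or _x_at changed none. Only the scalings and, for genes with several probe sets above the floor on an array, the median over probe sets changed the others. Without a floor the other Stat2 probe set was at a log2 ratio of -1.32, so the direction of Stat2 is not settled. The Stat3 probe set 1424272_at was at least 2.38-fold higher with a 60th percentile floor, and at least 5.32-fold higher with a 40th percentile floor.

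**Figure D3:**
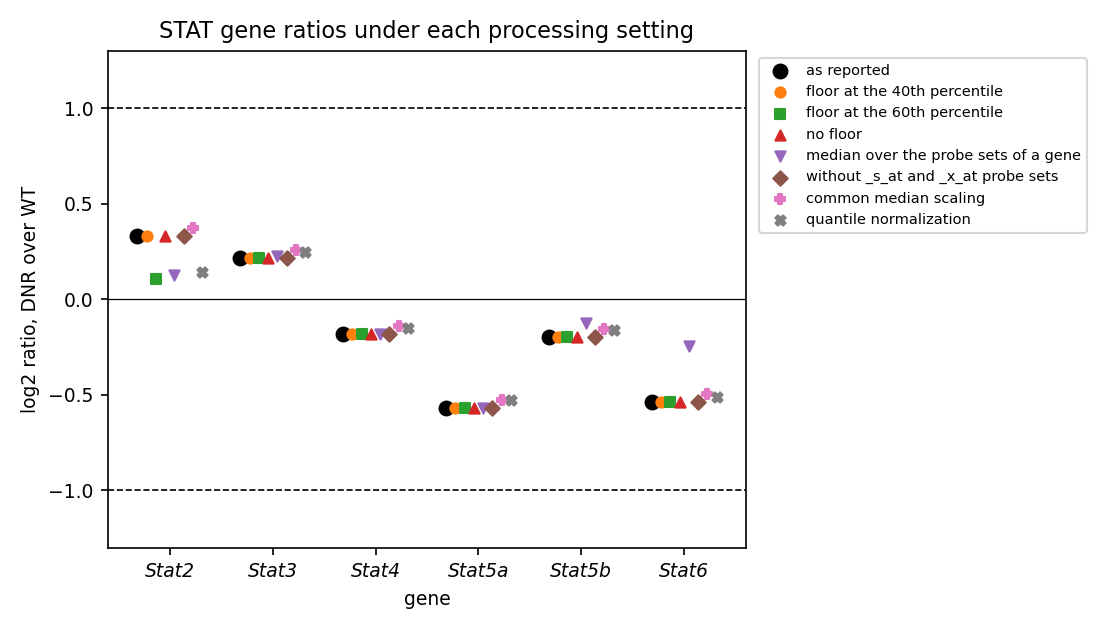
Log2 ratio of DNR over WT of each STAT gene as reported (black) and under 7 alternative settings (colours), with dashed lines at 2-fold. Stat2 and Stat3 stay above 0 and the other 4 genes below it in every setting shown, and none reaches a dashed line.

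The regulatory sequence in front of the genes is shown for Stat2 and Stat4. Each has a promoter with a match to an interferon-type motif, while the other Stat4 promoter had none. The Foxp3 promoter is shown as an example of the STAT palindrome before a STAT5 target. The RefSeq promoter table (GRCm38.p6) held 9 promoters for the 6 STAT genes, and 250 bases before a start are printed, with the matches in capitals. The Stat2 promoter is at chr10:128270248-128270497, the Stat4 promoter, from the downstream of its starts, at chr1:52007990-52008239, and the Foxp3 promoter at chrX:7580233-7580482, all on the plus strand.
Stat2: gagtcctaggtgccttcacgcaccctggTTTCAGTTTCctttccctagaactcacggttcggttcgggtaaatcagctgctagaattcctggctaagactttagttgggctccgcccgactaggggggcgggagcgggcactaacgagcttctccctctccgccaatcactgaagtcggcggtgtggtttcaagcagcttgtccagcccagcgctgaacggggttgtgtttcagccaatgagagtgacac
Stat4: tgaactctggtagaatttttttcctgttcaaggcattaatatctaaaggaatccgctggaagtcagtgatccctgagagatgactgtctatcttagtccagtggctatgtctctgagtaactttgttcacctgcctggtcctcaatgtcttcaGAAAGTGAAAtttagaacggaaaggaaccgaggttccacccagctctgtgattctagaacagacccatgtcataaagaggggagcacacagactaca
Foxp3: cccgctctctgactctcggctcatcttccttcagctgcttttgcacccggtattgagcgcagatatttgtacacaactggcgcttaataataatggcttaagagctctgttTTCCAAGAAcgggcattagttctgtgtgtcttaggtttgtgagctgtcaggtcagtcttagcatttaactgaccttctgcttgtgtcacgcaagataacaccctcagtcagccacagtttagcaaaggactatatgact

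The palindrome TTCNNNGAA, which reads the same on both strands, was in 0 of the 9 STAT promoters of 300 bases, against 8.30% of all 32851 promoters. The interferon-type motif, TTTCNNTTTC or its reverse complement GAAANNGAAA, was in 2 of the 9, against 3.44% of all promoters. Among the listed targets of STAT2 it was in 9 of 17 genes, against 3.99% of all genes with a promoter. The interferon-type motif was added after the promoters had been seen, so its counts are a description and no test. The palindrome was in 5 of 12 STAT4, 5 of 18 STAT5, 4 of 17 STAT2, 2 of 9 STAT6 and 2 of 14 STAT3 target genes. Of all genes with a promoter 9.55% held it. The STAT4 and STAT5 counts both include Gzmb and Lta. In the other lists it was in 4 of 18 receptor, 2 of 14 ligand, 2 of 12 inhibitor, 1 of 14 partner factor and 0 of 4 Janus kinase genes. A promoter of Stat5a and one of Stat5b shared a run of 16 bases, aggaaatcgctgctct, the longest between any 2 of the 9. Measured genes with the palindrome had a median log2 ratio of 0.02 and those without it 0.01. A match is a description of these letters and not a site.

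The genes around the STATs were taken from lists of receptors, kinases, ligands, inhibitors and targets, 147 genes in all, of which 27 are in more than 1 list and 10 had no named probe set. Of all measured genes, 4.0% were at least 2-fold higher and 2.93% at least 2-fold lower. Over all the listed genes 6 were at least 2-fold higher and 4 at least 2-fold lower. Some listed genes with a probe set were not measured, and the share among the measured ones was not computed. These counts are therefore not read as more or fewer than that background.

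Of the 21 listed cytokine ligand genes, 5 exceeded the floor on both arrays and so could have gone either way. All 5 had a higher signal in DNR Tregs, with a median log2 ratio of 0.97, and only Ifng was past 2-fold. Over all 9281 genes that exceeded the floor on both arrays, 46.5% were higher, 3.05% were at least 2-fold higher and the median was -0.03. Ifng, the gene of interferon-gamma, the Th1 cytokine, had 3524 in DNR Tregs and 1227 in WT Tregs, 2.87-fold higher. Il10, Lif, Ebi3 and Osm, the other 4, were each under 2-fold, with Osm lowest at 0.28, and Lif, Ebi3 and Osm are named after their values were seen. A further 4 ligand genes, Il2, Il4, Il21 and Il23a, exceeded the floor on the DNR array alone, so their higher direction was set by the filter. Il21, a STAT3-activating cytokine of helper T cells, had 230 in DNR and 70.5 in WT Tregs, at least 2.07-fold higher, and Il23a, a subunit of interleukin-23, had 236 in DNR and 63.6 in WT Tregs, at least 2.13-fold higher. Both were under 2-fold with a 60th percentile floor, with log2 ratios of 0.46 and 0.50. Of all measured genes 1813 were above the floor on the DNR array alone, while 833 were above it on the WT array alone. With these 4 bounds, 3 of 9 measured ligand genes were past 2-fold, and 5 under scaling to a common median.

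The receptors went both ways. Of 19 measured receptor genes 10 were higher and 9 lower, with 0 higher and 2 lower by at least 2-fold and a median of 0.12. Of these, 3 exceeded the floor on the DNR array alone. Over the other 16, 7 were higher and 9 lower with a median of -0.11, so the sign of the median rests on those 3 genes. Il6ra, the interleukin-6 receptor upstream of STAT3, had 1007 in DNR Tregs and 3367 in WT Tregs, 3.34-fold lower, and its other probe set was at a log2 ratio of -0.48. Ifngr2, a chain of the interferon-gamma receptor, had 437 in DNR and 988 in WT Tregs and was 2.26-fold lower, with its other probe set at -0.21 and a median over both of -0.69. Il6st, the gp130 chain shared by interleukin-6 family receptors, was under 2-fold, with 2017 in DNR and 3808 in WT Tregs, and its 2 other probe sets were at -1.49 and -0.26. It is named after its values were seen. Of the chains of the interleukin-2 receptor that feeds STAT5, Il2ra and Il2rb differed little. Il2ra had 3969 in DNR and 4591 in WT Tregs, and Il2rb 2922 in DNR and 3398 in WT Tregs. Both too are named after their values were seen. Il2rg, the gene of the common gamma chain of this receptor, had no named probe set. Of 12 measured macrophage and monocyte markers 10 were lower as well, C1qa, C1qc and Vcam1 by at least 2-fold. The summed signal over the 14 that have a probe set was 5106 in DNR Tregs and 6819 in WT Tregs. The higher ones, Itgam and Mertk, exceeded the floor on the DNR array alone, so their direction was set by the filter. All 10 above the floor on both arrays were lower, with a median of -0.44, while 46.5% of all such genes were higher. The part of these markers in the receptor values was not tested. Fewer cells of a type and less RNA per cell cannot be told apart in such samples.

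None of the 4 Janus kinase genes differed by 2-fold. Jak1, the kinase of most receptors that T cells use, had 8608 in DNR Tregs and 11442 in WT Tregs, 1.33-fold lower, and its other probe sets were at -0.24 and -0.21. Jak2, the kinase of the interferon-gamma and interleukin-12 receptors, had 5603 in DNR and 4686 in WT Tregs, 1.20-fold higher, with its other probe set at 0.22. Jak3, the partner of the common gamma chain, was dim and 1.59-fold higher, with 223 in DNR and 140 in WT Tregs. Tyk2, a kinase of interferon and interleukin-12 receptors, was 1.13-fold higher, with 1727 in DNR and 1534 in WT Tregs. Jak1 was thus lower with each of its probe sets and Jak2 higher with each of its own, all by less than 2-fold.

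Inhibitors of STAT signalling were evenly split, with 9 of 20 measured genes higher, 11 lower and a median of -0.03. The only one past 2-fold was Socs6, a member of the SOCS family, which was above the floor in WT Tregs alone. It had 98.6 in DNR and 547 in WT Tregs and was thus at least 4.93-fold lower, while another probe set was at 0.49 and the gene's median was -0.90. Socs3, the feedback inhibitor that STAT3 induces, had 16218 in DNR and 12346 in WT Tregs, but its other probe sets were at -0.33 and -0.09. With its unique probe set alone (name ending in _at with no s or x before it) Socs3 was at -0.33, so its direction is not settled. Ptpn2, a phosphatase of STATs and Janus kinases, had 8126 in DNR and 10899 in WT Tregs, a signal lower by 1.34-fold, while its 3 other probe sets lay between -0.28 and 0.08. Cish and Socs2, feedback inhibitors that STAT5 induces, are named after their values were seen. Cish had 9587 in DNR Tregs and 6348 in WT Tregs, 1.51-fold higher, and Socs2 had 4648 in DNR and 3149 in WT Tregs, a log2 ratio of 0.56. Inhibitors lower by a similar amount included Pias4 at -0.59, Usp18 at -0.51, Socs4 at -0.49 and Ptpn6 at -0.48. These too are named after their values were seen.

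**Figure D4:**
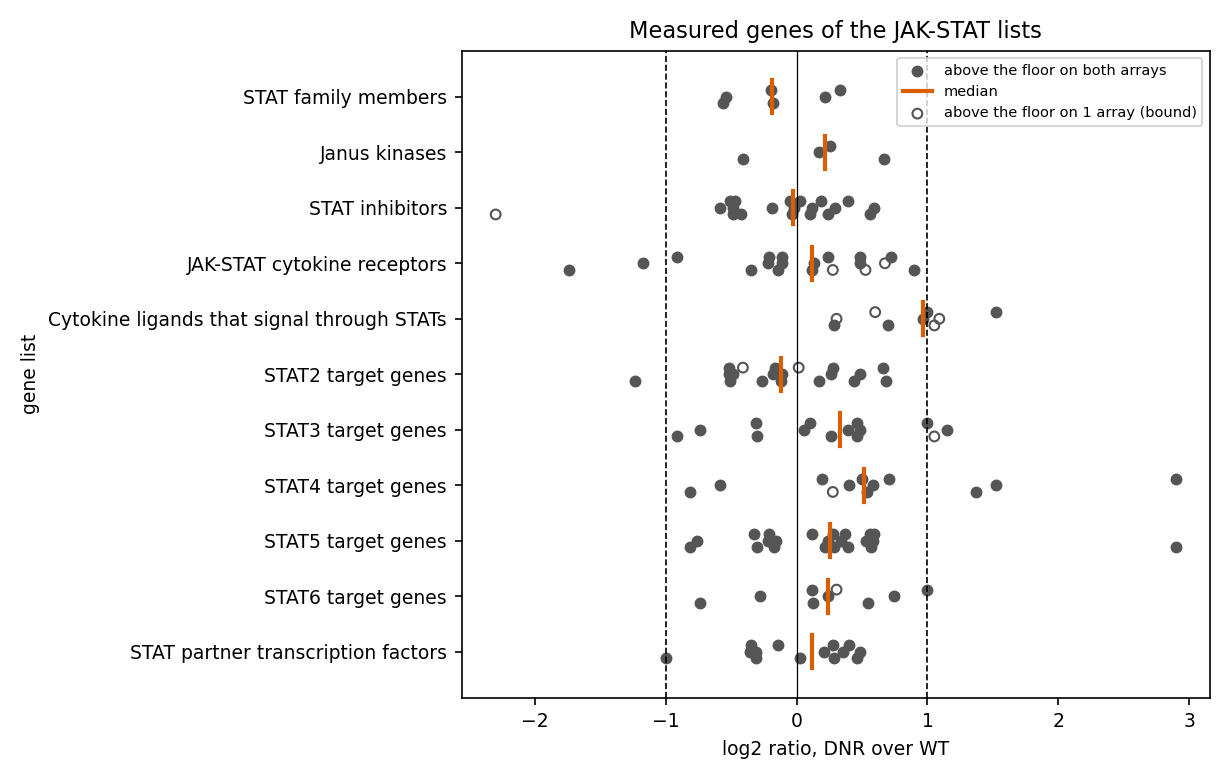
Log2 ratio of DNR over WT of every measured gene in each list (rows), with filled circles for genes above the floor on both arrays, open circles for bounds, orange bars for list medians and dashed lines at 2-fold. The STAT genes lie between the lines, the cytokine ligands are all right of 0, 4 of them as bounds, and Gzmb, at 2.90, is the farthest point to the right in the STAT4 and STAT5 target rows.

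The targets were counted for each STAT, although many genes answer to several STATs and to other factors. Since the lists were chosen with earlier results of these data known, the shares of all genes beside the counts describe and do not test. Of 12 measured STAT4 target genes 10 were higher, 3 of which reached 2-fold, with a median log2 ratio of 0.52 and 0 lower by 2-fold. The direction of Il12rb2 was set by the filter, since it exceeded the floor on the DNR array alone. Of the 11 above the floor on both arrays 9 were higher, with a median of 0.54, against 46.5% of all such genes. Gzmb, the cytotoxic protease granzyme B, had 13369 in DNR Tregs and 1793 in WT Tregs, 7.46-fold higher. Tbx21, which encodes T-bet, the transcription factor of Th1 cells, had 731 in DNR and 283 in WT Tregs, 2.59-fold higher, and Ifng was 2.87-fold higher as given above. Stat4 itself had a 1.13-fold lower signal. Of 8 measured CD8 T and NK cell markers 5 were higher and 3 lower, with a summed signal of 2600 in DNR Tregs and 1848 in WT Tregs over the 9 that have a probe set. Nkg7 and Gzmk were at least 2-fold higher and Klra7 was below the floor on both arrays. Cd8a had 198 in DNR and 148 in WT Tregs, with its 2 other probe sets at -0.05 and 0.15. The lower ones were Cd8b1, with 171 in DNR and 294 in WT Tregs, Eomes, with 360 in DNR and 416 in WT Tregs, and Klrk1, with 68.2 in DNR Tregs, which is below the floor, and 140 in WT Tregs. Their part in the target values was not tested.

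Of 14 measured STAT3 target genes 10 were higher, with a median of 0.33. One of them, Il21, exceeded the floor on the DNR array alone, so its direction was set by the filter. Over the 13 above the floor on both arrays 9 were higher, with a median of 0.26, against 46.5% of all such genes. Maf, a transcription factor of cells that make interleukin-10, had 8586 in DNR Tregs and 3875 in WT Tregs, 2.22-fold higher, and its 4 other probe sets were higher by less than 2-fold, at 0.45 to 0.95. Il21 was the other one past 2-fold, as a bound. Of 22 measured STAT5 target genes 14 were higher and 8 lower, with a median of 0.26, and Gzmb was the only one past 2-fold. Mcl1, a survival factor of the BCL2 family, had 41337 in DNR and 32048 in WT Tregs, yet its median over probe sets was -0.06. Ctla4, an inhibitory receptor of Tregs, had 52119 in DNR and 41217 in WT Tregs, 1.26-fold higher.

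Of 9 measured STAT6 target genes 7 were higher and none by 2-fold, with a median of 0.24. Il4 exceeded the floor on the DNR array alone, so its higher direction was set by the filter. With Il4 left out, 6 of 8 were higher, with a median of 0.18. Where both arrays exceeded the floor, 46.5% of all genes were higher. The STAT6 target with the largest ratio was Il10, the anti-inflammatory cytokine, just under 2-fold with 4468 in DNR Tregs and 2238 in WT Tregs. It passed 2-fold under scaling to a common median and under quantile normalization, at log2 ratios of 1.04 and 1.02, which makes the count 1. Nfil3, a transcription factor gene that interleukin-4 induces, had 5691 in DNR and 3391 in WT Tregs, 1.68-fold higher. Of 19 measured STAT2 target genes 8 were higher and 11 lower, with a median of -0.12. Ifit3, an interferon-induced antiviral gene, was the only one past 2-fold, with 459 in DNR and 1083 in WT Tregs, a signal lower by 2.36-fold. Ifi35 and Trim30a, interferon-induced genes with the highest mean signals of this list, had 10021 and 3969 in DNR Tregs, against 12043 and 4286 in WT Tregs.

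Of 14 measured partner transcription factors 8 were higher and 6 lower, with 0 past 2-fold and a median of 0.12. Irf9, the partner of STAT2, had 2412 in DNR and 1988 in WT Tregs, 1.21-fold higher, and is named after its values were seen. Irf1, an interferon-induced factor, had 19179 in DNR and 15724 in WT Tregs, and Hif1a, the oxygen-regulated factor, 19606 in DNR and 14262 in WT Tregs, 1.37-fold higher, with its 2 other probe sets at 0.46 and 1.13. Jun, an AP-1 subunit also named after its values were seen, was just under 2-fold lower, with 6394 in DNR and 12780 in WT Tregs. The other Jun probe set was past 2-fold lower, at -1.12. The count of partner factors at least 2-fold lower became 1 under quantile normalization and with the median over probe sets.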

How the data were processed

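The deposited table holds 1 intensity per probe set and array, which the authors made with MAS5 per the submitters' processing notes. After trimming 2% of the values at each end, the deposited intensities had a mean of 500.0 on both arrays. Further settings and a genome build are not stated in the sources. Of 45101 probe sets 64 controls were set aside. The platform annotation gave 1 gene to 34945 of the remaining probe sets. Symbols were looked up through Entrez identifiers in the RefSeq table, and 0 changed.

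Ratios were computed as log2 of DNR over WT with Python 3.11.15, numpy 2.4.6 and pandas 2.3.3, after values below 110.9 were set to that floor. The probe set with the highest mean signal stood for its gene, and 2-fold was the threshold. The probe-set SD came from the 2 brightest probe sets of each gene, which replaced all probe sets after a test on simulated data showed that using all of them gave too small a value. Precision is limited by the number of arrays.

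The rule for named genes took all STAT and Janus kinase genes, up to 5 genes past 2-fold in each other list, and its 2 brightest members where fewer than 2 were past it. The STAT genes and the lists were chosen with earlier results of these data known, and the interferon-type motif was added after the promoters had been seen. Alternatives were other floors, thresholds, probe-set summaries and scalings.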

Additional observations from a re-analysis of the deposited data

How the results depend on the processing

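The count of STAT genes past the threshold was 0 with each of the 9 alternatives, the 1.5-fold threshold included. At 3-fold this was fixed in advance, since no STAT gene reached 2-fold. Leaving out probe sets named _s_at or _x_at changed no STAT ratio, and the other floors changed only that of Stat2, so these settings test little. Over all genes, 477 were higher and 350 lower. These became 1526 and 1175 at 1.5-fold, 56 and 63 at 3-fold, 1026 and 550 with a 40th percentile floor and 3617 and 2655 with no floor and no filter, and 250 and 246 with a 60th percentile floor. Over the listed genes, 6 were higher and 4 lower, which became 19 and 11 at 1.5-fold, 1 and 2 at 3-fold and 18 and 8 with no floor. Counted over genes above the floor on both arrays, an alternative chosen after seeing the data, the median of the receptors changed sign, and those of the inhibitors and of the STAT3, STAT4 and STAT6 targets were -0.02, 0.26, 0.54 and 0.18. Among the named genes, Socs3 and Mcl1 changed sign with another summary of their probe sets, both at ratios under 2-fold. Scaling to a common median moved the median of all measured genes to 0.05 and the share of higher genes to 55.3%, and quantile normalization gave 0.00 and 49.5%, against 0.01 and 51.4% as reported. Probe sets near the floor, such as those of Stat2, limit what can be measured. No paired analysis was possible because each genotype has 1 array, and for the same reason no replicate could be left out.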
